A study of Sus scrofa with 4 samples.

Results

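The infarct zone of control hearts was compared with the border zone of control hearts, in tissue from minipigs with myocardial infarction (MI). The infarct zone is the territory that lost its blood supply, and the border zone is the muscle around it. All probe sets other than the Affymetrix controls were compared, 23999 in number, and the account rests on the 12290 of them with a mean signal of at least 128 units over the 2 control arrays. A probe set is a group of short probes that reads one transcript, and a unit is the linear signal of the MAS 5.0 algorithm. Of the 12290 probe sets, 6077 carry a single gene symbol, 132 carry several and 6081 carry none.

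The minipigs were 4-month-old females of the Chinese Bama strain, and MI was made by permanent ligation of the left circumflex coronary artery. The control group for treatment received 5 mL of the culture medium DMEM by 10 injections into the prospective border zone of the infarct. It also received cyclosporin A at 5 mg/kg to suppress immunity. If the control arrays come from this group, their border zone was the injected site. The part of the injections in the zone difference was not tested. The study describes its arrays as a comparison of the myoblast group with this control treatment group. It calls the array tissue peri-ischaemic or peri-infarct, whereas the labels name an infarct zone and a border zone. The sources therefore do not settle which tissue the infarct array holds. The labels give the control tissue only as untreated. A further group of minipigs with MI received neither medium nor cyclosporin, and the study does not name it for the arrays. The other 2 of the 4 arrays come from the same zones of minipigs with MI that received human myoblasts. They are used only as a second pair of zones that shares no array with the controls. The myoblasts were injected into the border zone, so that zone was the graft site in this pair. Zone and graft cannot be told apart there. The sources do not say how many minipigs stand behind an array, whether both zones came from the same heart or when the tissue was taken. Each condition has 1 array, so there is no spread between minipigs, no test and no p-value, and every difference below is between those 2 arrays.

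After coronary ligation, cardiomyocytes in the ischaemic territory die, inflammatory cells clear them, and fibroblasts and myofibroblasts lay down a collagen scar. The border zone keeps living cardiomyocytes under raised wall stress, and stressed ventricular muscle is known to make natriuretic peptides and small heat shock proteins. A mature infarct scar is therefore usually poor in the RNA of cardiomyocytes and rich in that of matrix genes.

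The label of the infarct zone was set against these markers first. The RNA of cardiomyocytes was as abundant on the infarct array as on the border array. MYH7, the slow myosin heavy chain of the ventricle, read 28100 units in the border zone and 34400 units in the infarct zone. MYL2, the ventricular regulatory light chain, read 31800 and 37300 units, and TNNT2, cardiac troponin T, read 29600 and 34800 units. Of the 13 cardiomyocyte markers with at least 128 units, 11 were higher in the infarct zone. Among all 4911 genes of that brightness, 55.5% were higher. The summed signal of the 13 markers was 269000 units in the border zone and 309000 units in the infarct zone. Their median log2 difference was 0.18, where all genes of the same signal ranges, the markers included, had 0.14. Fibroblast markers were present on both arrays, with summed signals of 101000 and 104000 units, and of 13 members 5 were higher and 8 lower in the infarct zone, with a median log2 difference of -0.08. The data thus hold heart muscle with matrix-producing cells on both arrays, and the infarct array was not poorer in cardiomyocyte RNA. In such bulk tissue, fewer cells of a type and less RNA per cell cannot be told apart.

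The 2 arrays were close to each other. Their log2 signals correlated at r = 0.984 across the 12290 probe sets, which are not independent replicates. The signals of 11649 probe sets, 94.8%, lay within 1.5-fold between the zones, and 70.7% lay within 1.2-fold. At least 2-fold higher in the infarct zone were 25 probe sets, 0.203% of those compared, and 52 were at least 2-fold lower, 0.423%. Of the 25, 12 carry a single symbol and 12 were under 128 units on 1 array. Of the 52, 21 carry a single symbol and 29 were under 128 units on 1 array. The size of the differences depended on brightness. The share at least 2-fold apart was 54.4% under 32 units, 17.4% between 32 and 128 units, 1.05% between 128 and 512 units, 0.272% between 512 and 2048 units and 0% above 8192 units. The probe sets nearest to 128 units on both sides of the limit were alike, with a median absolute log2 difference of 0.27 just inside it and 0.303 just outside.

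**Figure D1:**
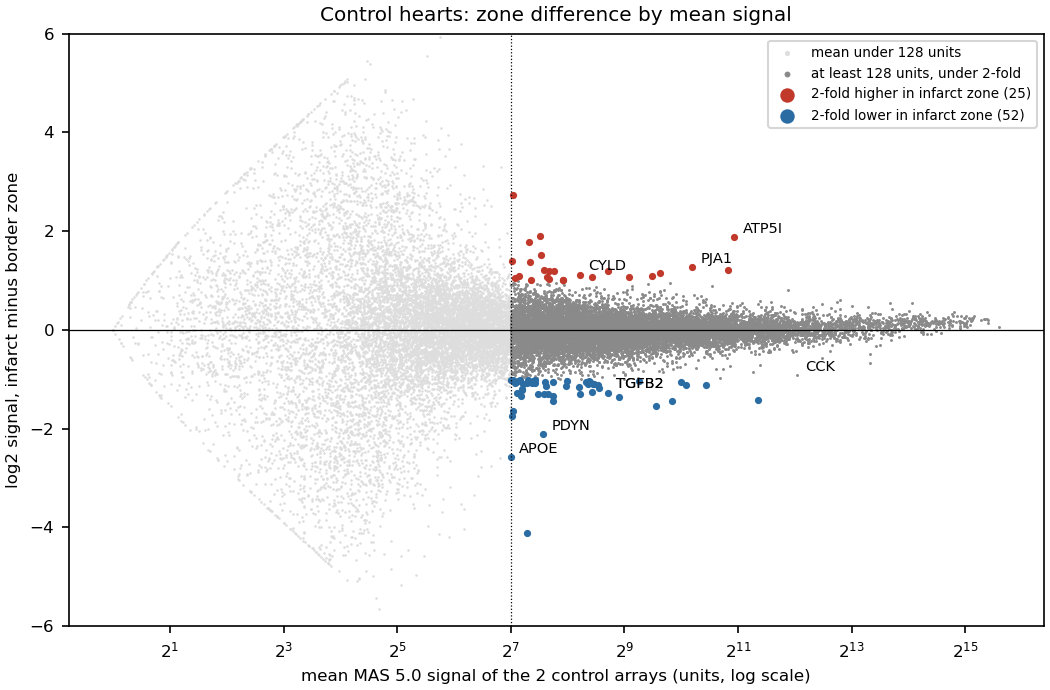
Each point is a probe set, placed by its mean signal on the 2 control arrays (x axis, log scale) and by its log2 signal in the infarct zone minus that in the border zone (y axis, drawn to 6 log2 units either way). The cloud narrows as signal grows, and right of the dotted line at 128 units 25 probe sets lie 2-fold or more above 0 and 52 lie 2-fold or more below it.

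The bright end of the range was shifted as a whole. The 393 probe sets above 8192 units had a median log2 difference of 0.137, against -0.029 from 128 to 512 units. This shift bears on every group of highly expressed genes. The medians of the cardiomyocyte, sarcomere, energy metabolism, chaperone and ribosomal lists are therefore given beside the medians of all genes of the same signal range. Those medians include the list members themselves, so a list of bright genes lies near them in part by construction. Across all 4911 genes of at least 128 units, each represented by its brightest probe set, the median was 0.028 and 55.5% lay above 0. By this representation 103 genes were at least 1.5-fold higher in the infarct zone, 2.10%, and 84 were at least 1.5-fold lower, 1.71%.

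Among genes with at least 128 units on each array, the largest difference upward was that of ATP5I, a small subunit of mitochondrial ATP synthase. Its signal was 836 units in the border zone and 3070 units in the infarct zone, a fold of 3.68. Its other probe set was dim, at 19.3 and 8.42 units, and after myoblasts the bright one ran the other way, at 610 and 331 units. By their brightest probe sets, none of the 37 listed genes of oxidative phosphorylation, which do not include ATP5I, differed by more than 0.39 on the log2 scale. Some of their dimmer probe sets went further, such as NDUFV2 at 0.76 and ATP5L at -0.86. PJA1, an E3 ubiquitin ligase, read 686 units in the border zone and 1660 units in the infarct zone, a fold of 2.42. Its other probe set read 133 and 126 units, so the RNA of PJA1 was not higher by both of its measurements.

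CYLD, a deubiquitinase that restrains NF-kB signalling, read 187 units in the border zone and 406 units in the infarct zone, a fold of 2.17. It was also higher in the infarct zone after myoblasts, at 237 and 426 units. PKIB, an inhibitor of protein kinase A, read 161 and 322 units, and after myoblasts 350 and 460 units. Both genes were thus higher in the infarct zone on each pair of arrays.

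GPNMB, a transmembrane glycoprotein made by macrophages that take up debris, was measured by 5 probe sets. Its 3 probe sets with a mean of at least 128 units were all higher in the infarct zone, both in controls and after myoblasts, and the other 2 were too dim for a direction. The brightest read 4430 and 5710 units in controls, and the next read 258 and 468 units, a fold of 1.82. ADAM17, the protease that releases tumour necrosis factor from the cell surface, read 166 and 297 units by its brightest probe set and 114 and 127 units by the next. The remaining genes of the 12 with the largest differences upward were LOC100154873, HERC3, PPP6R2, SPPL2B, ARGLU1 and GPBP1, with folds from 2.33 down to 1.77. The brightest probe sets of ARGLU1 and PPP6R2 ran the other way, at 3680 and 3120 units and at 221 and 201 units. SPPL2B, an intramembrane protease, was higher by more than 1.5-fold in both of its probe sets of at least 128 units, while another, dimmer on average, read 148 and 35.7 units. Of the 12 genes, 6 ran the same way after myoblasts.

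Again among genes with at least 128 units on each array, the largest difference downward was that of TGFB2, a ligand that drives fibroblasts towards matrix synthesis. Its brightest probe set read 592 units in the border zone and 246 units in the infarct zone, a log2 difference of -1.27. Of the other 3 probe sets of TGFB2, the brightest read 224 and 269 units, a log2 difference of 0.26 the other way. The rest were under 128 units and too dim for a direction, at 88.9 and 102 units and at 88.4 and 93.1 units. By its probe sets of at least 128 units TGFB2 therefore had no common direction. RRP36, a factor in ribosomal RNA processing, read 490 and 203 units by its brightest probe set, and 373 and 354 units after myoblasts. A dimmer probe set of RRP36 ran the other way in controls, at 84.3 and 128 units. SULF2, which removes sulphate groups from heparan sulphate, read 512 and 234 units in controls and 494 and 281 units after myoblasts by its brightest probe set, while its other one read 148 and 147 units in controls.

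SPI1, the transcription factor PU.1 of myeloid cells, read 485 units in the border zone and 226 units in the infarct zone, a log2 difference of -1.10. After myoblasts it read 303 and 260 units. Macrophage markers, which are described below, did not share this difference. ADAM9, a membrane metalloproteinase, read 678 and 340 units by its brightest probe set. Its other 2 probe sets of at least 128 units were lower in the infarct zone too, at log2 differences of -0.32 and -0.25. After myoblasts the brightest read 968 and 669 units, while these 2 ran the other way, at 387 and 596 units and at 233 and 333 units.

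CCK, the precursor of the peptide cholecystokinin, was the brightest gene among the 12 with the largest differences downward. It read 5500 units in the border zone and 2900 units in the infarct zone, 0.527 of the border signal. After myoblasts it read 2130 and 428 units, 0.201 of the border signal. CCK was thus lower in the infarct zone of each pair, although the control infarct zone read above the border zone after myoblasts. The remaining genes of the 12 were RSAD2, TM2D3, DHRS11, CCDC93, ATG2A and SNX17, with log2 differences between -1.18 and -0.87, and RSAD2 is described with the interferon-stimulated genes. For CCDC93 and SNX17 this was 1 of several probe sets, and another read 510 and 596 units and 418 and 433 units, respectively. Of the 12 genes, 9 ran the same way after myoblasts by the probe set of their largest difference.

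**Figure D2:**
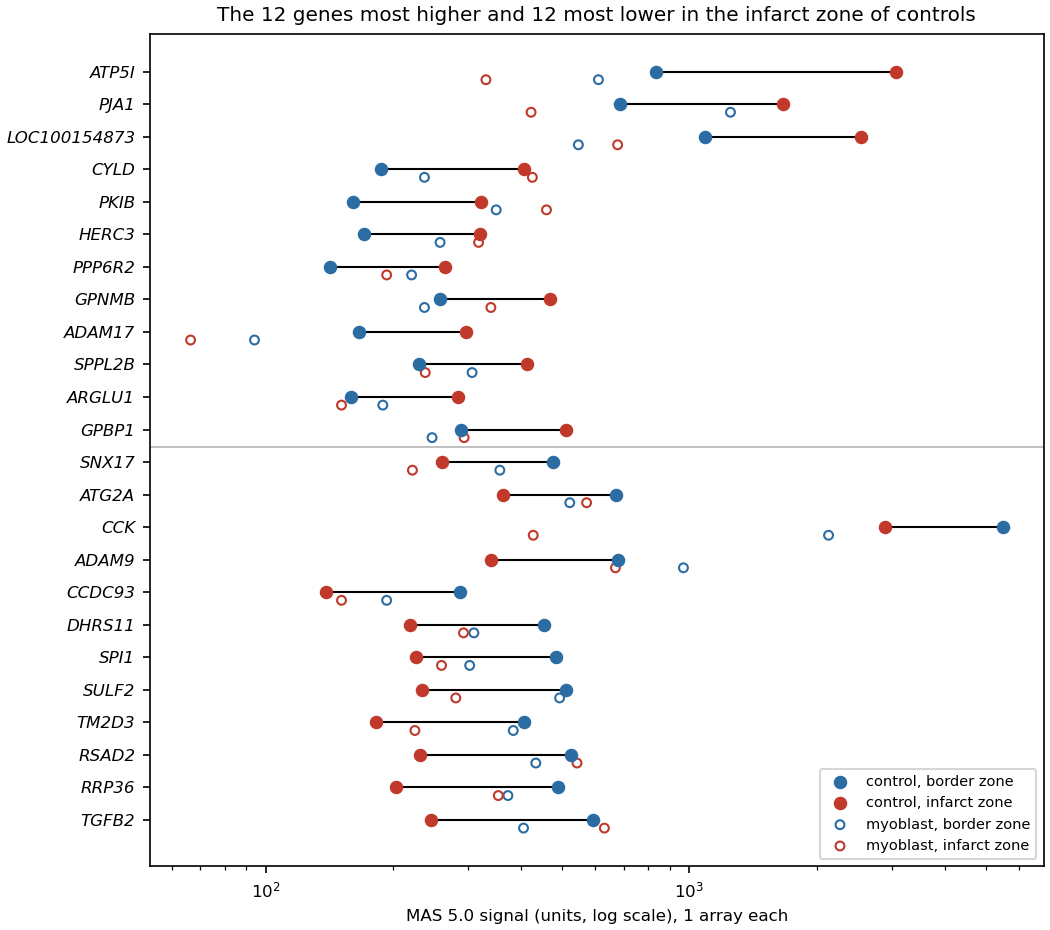
Signal of the 24 genes with the largest zone difference in controls among those with at least 128 units on each control array (x axis, MAS 5.0 units on a log scale, 1 array per point). Filled points are control arrays joined by a line, open points are arrays after myoblasts, blue is the border zone and red the infarct zone; in the upper block, 6 of the 12 genes ran the same way after myoblasts, as did 9 of the 12 in the lower block.

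A smaller group crossed the limit of 128 units between the zones. PDYN, the precursor of the dynorphin opioid peptides, read 309 units in the border zone and 71.3 units in the infarct zone, 0.231 of the border signal. After myoblasts it read 1270 and 47.6 units, 0.0374 of the border signal. APOE, the apolipoprotein that carries cholesterol out of macrophages, read 220 and 36.7 units in controls and 297 and 329 units after myoblasts. ARAP2, MAP1B, NOL10 and ERAL1 were also lower in the infarct zone, with log2 differences from -1.75 to -1.20. ZNF771, MCT7, DTNB, NSF, CD164 and PRKAR2A were higher by 1 probe set each, with folds from 3.44 down to 2.11. Brighter probe sets did not share this for NSF, at 489 and 373 units, or for CD164, at 4100 and 3860 units and at 1140 units in both zones. A second probe set of ERAL1 read 89.7 and 173 units, opposite to the first. PDYN was low in both infarct zones, whereas APOE was low on the control infarct array alone of the 4.

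Separate probe sets of one gene give a view of how far a difference is repeated within the same 2 arrays. There were 747 genes with exactly 2 probe sets of at least 128 units, and in 411 of them, 55.0%, both differences had one sign. The median gap between the 2 differences was 0.21 on the log2 scale, and the gap at the 90th percentile was 0.53. In 53 of these genes a probe set was at least 1.5-fold apart between the zones. In 2 of the 53, HSPB6 and SPPL2B, both probe sets were at least 1.5-fold apart the same way.

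Gene groups were then followed by function. Together the lists held 487 genes of at least 128 units, of which 7 were at least 1.5-fold higher in the infarct zone and 14 at least 1.5-fold lower. These counts are to be read against all 4911 genes of that brightness, of which 2.10% were at least 1.5-fold higher and 1.71% lower. None of the 487 was 2-fold higher by its brightest probe set and 2, TGFB2 and RSAD2, were 2-fold lower. The counts above and below 0 that follow are over list members of at least 128 units, and are to be read against the 55.5% of all such genes that lay above 0.

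Interferon-stimulated genes, the antiviral programme that cells switch on under interferon, formed the list with the lowest median among those with 5 or more members of that brightness. Of its 18 members 15 were lower in the infarct zone, 3 of them by at least 1.5-fold, and the median log2 difference was -0.35. RSAD2, which encodes the antiviral protein viperin, read 525 units in the border zone and 231 units in the infarct zone. ISG15, a ubiquitin-like protein that is conjugated to other proteins, read 1060 and 583 units. DDX58, the RNA sensor RIG-I, read 458 and 292 units. The GTPase MX1 read 772 and 516 units, USP18, which removes ISG15 from proteins, 656 and 448 units, and OAS1, which activates the degradation of viral RNA, 632 and 446 units.

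The remaining members showed smaller differences. IFIT1, IFIT2 and IFIT3, which bind foreign RNA, had log2 differences of -0.23, -0.39 and -0.32. MX2 and SP110 were the members highest in the infarct zone, each at 0.26. In the zones after myoblasts the list had a median of 0.01, with 10 members above 0 and 8 below. ISG15 read 982 and 994 units there and MX1 differed by -0.02 on the log2 scale. On these 4 arrays the lowest signal of RSAD2, ISG15, DDX58 and MX1 was in each case that of the control infarct zone. Whether the zone difference itself differs between the pairs was not tested, since each zone has 1 array per pair.

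The other lists of immune signalling did not move with the interferon-stimulated genes as a block. Antigen presentation, the genes that load and display peptides, had 10 members above 0 and 10 below, although PSMB8, an interferon-inducible proteasome subunit, read 696 units in the border zone and 498 units in the infarct zone. Chemokines and their receptors had 3 members above 0 and 7 below, with a median of -0.17. CXCL2, which attracts neutrophils, read 999 and 556 units in controls and 3370 and 4750 units after myoblasts. CCL2, which attracts monocytes, read 695 and 540 units, with a log2 difference of -0.34 after myoblasts.

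**Figure D3:**
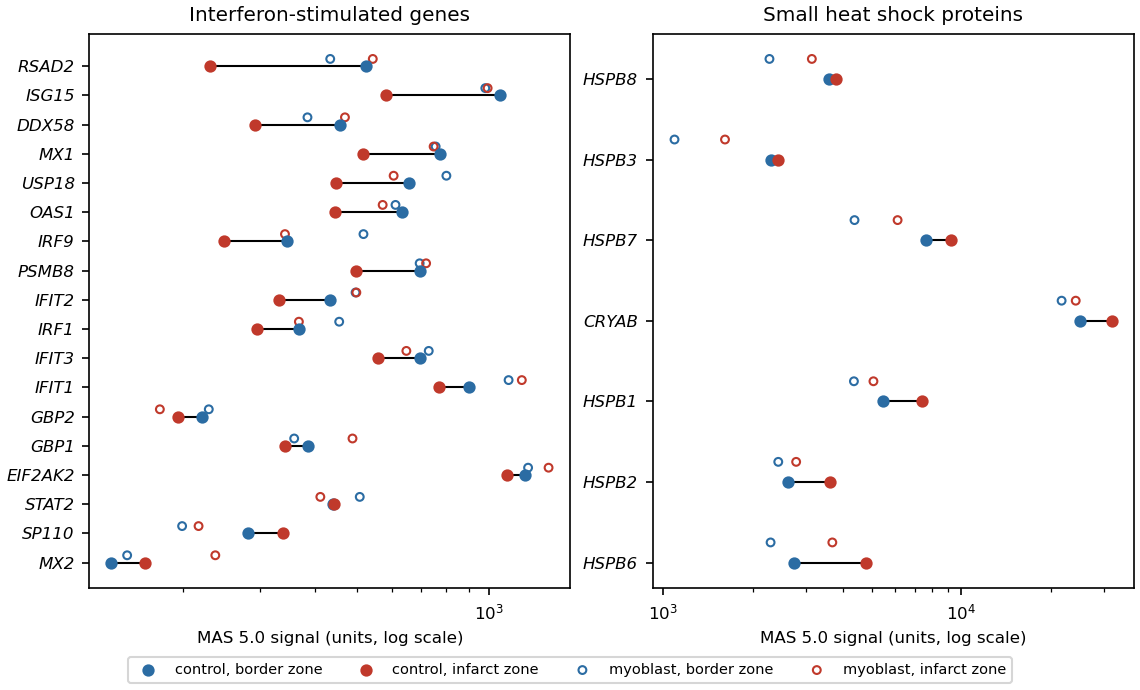
Signals of interferon-stimulated genes (left) and small heat shock proteins (right) on the 4 arrays (x axis, MAS 5.0 units on a log scale, 1 array per point). Filled points are controls joined by a line, open points are arrays after myoblasts, blue is the border zone and red the infarct zone; 15 of the 18 interferon-stimulated genes are lower in the infarct zone of controls, while the small heat shock proteins are higher there, each gene being drawn by its brightest probe set.

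Small heat shock proteins, which hold damaged sarcomere and cytoskeletal proteins in solution, were higher in the infarct zone by their brightest probe sets. HSPB6, a cardiac member also known as Hsp20, read 2740 units in the border zone and 4780 units in the infarct zone, a fold of 1.75. Its second probe set read 123 and 217 units, a fold of 1.77. After myoblasts the brightest read 2290 and 3690 units and the second 162 and 257 units. HSPB6 was thus higher in the infarct zone by both probe sets on both pairs of arrays.

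HSPB2 read 2620 units in the border zone and 3620 units in the infarct zone, HSPB1, also known as Hsp27, read 5440 and 7350 units, and CRYAB, alpha B-crystallin, read 25100 and 32000 units. A second probe set of CRYAB ran the other way, at 2260 and 1740 units. HSPB7 read 7610 and 9240 units, and HSPB3 and HSPB8 differed by only 0.08 each on the log2 scale. All probe sets from 2048 to 8192 units, the range of HSPB3 and HSPB8, had a median of 0.021. Those above 8192 units, the range of CRYAB, had a median of 0.137. By their brightest probe sets HSPB1, HSPB2, HSPB3, HSPB7, HSPB8 and CRYAB were higher in the infarct zone after myoblasts as well. Their log2 differences there ran from 0.16 to 0.57. The wider list of heat shock proteins and chaperones had 22 of 28 members above 0 and a median of 0.08, where genes of the same signal ranges had 0.04. Its lowest members were DNAJB1, a co-chaperone, at -0.32, and HSF1, the transcription factor of the heat shock response, at -0.39. The small heat shock proteins were set apart from the wider list after their values were seen.

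Natriuretic peptides and other stress genes of the heart split by member. NPPB, the precursor of B-type natriuretic peptide, read 13800 units in the border zone and 20300 units in the infarct zone, a fold of 1.46. NPPA, the precursor of atrial natriuretic peptide, read 2150 and 1250 units, 0.579 of the border signal. After myoblasts NPPB read 10900 and 19500 units and NPPA read 9120 and 4220 units, so the 2 peptides ran in opposite directions on both pairs. EDN1, the precursor of the vasoconstrictor endothelin-1, read 205 and 120 units in controls and 210 and 129 units after myoblasts. AGT, angiotensinogen, read 1980 and 1140 units in controls but 2070 and 5840 units after myoblasts.

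Of 4 measured genes of atrial muscle and the conduction system, NPPA included, 3 were lower in the infarct zone. MYL4, the atrial essential light chain, read 1120 units in the border zone and 719 units in the infarct zone, and 1900 and 331 units after myoblasts. GJA5, connexin 40 of atrial muscle, conduction fibres and arterial endothelium, read 1020 and 656 units, and 991 and 1180 units after myoblasts. SLN, sarcolipin, an atrial inhibitor of the calcium pump, read 931 and 997 units in controls and differed by -3.51 on the log2 scale after myoblasts. NPPA and MYL4 were thus lower in the infarct zone of both pairs, whereas GJA5 and SLN were not.

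The sarcomere, the contractile unit of muscle, had 16 of 20 members above 0 and a median of 0.18, where all genes of the same signal ranges had 0.14. DES, desmin, which links sarcomeres to each other, read 10700 units in the border zone and 15500 units in the infarct zone. XIRP2, a protein of the intercalated disc, read 4320 and 5960 units. TNNT1, the slow skeletal troponin T listed with skeletal muscle, read 5520 and 8200 units in controls and 11500 and 13100 units after myoblasts. The median of the sarcomere list was 0.04 after quantile normalization and 0.06 after a lowess fit on signal, close to the 0.03 of all genes.

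Calcium handling genes had 8 of 10 members above 0, led by HRC, a calcium-binding protein of the sarcoplasmic reticulum, at 541 and 722 units. The calcium pump ATP2A2 read 22300 and 22500 units and its inhibitor PLN read 16900 and 17700 units. Ion channels and connexins had 7 members above 0 and 4 below, and GJA1, the main ventricular connexin, read 13500 and 13300 units. In controls every member of these 2 lists with at least 128 units, other than GJA5, differed by less than the 90th percentile of the gap between paired probe sets.

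Genes of energy metabolism were mostly slightly higher in the infarct zone. Subunits of oxidative phosphorylation, which make ATP from oxygen, had 29 of 37 members above 0 and a median of 0.13, where genes of the same signal ranges had 0.14. The range ran from NDUFA2 at 3860 and 5070 units to ATP5D at 3030 and 2620 units. The tricarboxylic acid cycle with creatine kinases had 17 of 23 members above 0 and a median of 0.13, where genes of the same signal ranges had 0.04. Glycolysis had 14 of 16 members above 0 and a median of 0.16 against 0.04 in the same signal ranges. It was led by the glucose transporter SLC2A1 at 304 and 417 units. With the median of its own signal range subtracted from each member, the medians of these 2 lists were smaller, at 0.04 and 0.07, respectively. Of the 25 genes of fatty acid use 14 were above 0, with a median of 0.04 and the same value in their signal ranges. ACADS, which oxidises short-chain acyl-CoA, read 384 and 674 units, a fold of 1.76, and after myoblasts 467 and 502 units. PPARD, a nuclear receptor for fatty acids, read 109 and 195 units, and its other 2 probe sets, both dimmer, differed by 2.48 and -0.91.

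Cytosolic ribosomal proteins were the most uniform list, with 54 of 55 members above 0, a median of 0.15 and RPL37 alone below 0, at 1600 and 1280 units. All genes of the same signal ranges, these members included, had a median of 0.14. After quantile normalization the median of the list was 0.02, under that of all genes. In the other pair 20 members were above 0 and 35 below.

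Matricellular proteins and collagen crosslinking enzymes, which organise the scar, had 16 of 20 members below 0 and a median of -0.16. THBS1, thrombospondin-1, an activator of latent TGF-beta, read 4520 units in the border zone and 3420 units in the infarct zone. P4HA2, which hydroxylates collagen, read 1340 and 1070 units, and POSTN, periostin of activated fibroblasts, read 9570 and 8630 units. SPARC, a collagen-binding protein, was among the 4 members above 0, at 33000 and 34400 units. After myoblasts the same list had a median of -0.54, and 14 of its 20 members were below 0 in both pairs. COMP, a cartilage and scar protein, differed by -0.29 in controls and by -4.45 after myoblasts.

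Collagens and small proteoglycans had 8 members above 0 and 10 below, with a median of -0.05 in controls and -0.56 after myoblasts. COL3A1, a fibrillar collagen of early scar, read 208 and 318 units, a fold of 1.53, and COL1A2 read 341 and 268 units. DCN, decorin, which binds collagen fibrils, read 22400 and 24600 units. Matrix metalloproteinases and their inhibitors had 5 members above 0 and 5 below. MMP14, a membrane-bound metalloproteinase, read 223 and 145 units, and 258 and 490 units after myoblasts. TIMP2, which inhibits metalloproteinases, read 3580 and 2770 units by its brightest probe set and 1890 and 2470 units by the other, so it had no common direction. TGF-beta and bone morphogenetic protein signalling had 3 members above 0 and 9 below, and besides TGFB2 none was 1.5-fold apart.

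Smooth muscle and myofibroblast markers split within the list. ACTA2, the smooth muscle actin of arteries and myofibroblasts, read 12500 units in the border zone and 7910 units in the infarct zone, 0.631 of the border signal. TPM2, a tropomyosin, read 3440 and 2540 units by its brightest probe set, though 1110 and 1640 units by another, TAGLN, transgelin, 1310 and 971 units, and ACTG2, a second smooth muscle actin, 3830 and 2940 units. KCNMB1, a potassium channel subunit of smooth muscle, read 159 and 97.4 units, while its dimmer probe set differed by 0.84. By contrast MYL9 read 755 and 1070 units and CNN1, calponin, read 779 and 919 units. After myoblasts ACTA2 read 13200 and 13700 units, and of the 12 members 8 were above 0. The list had a median of -0.14 in controls, which was 0.01 when all probe sets of a gene were averaged.

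**Figure D4:**
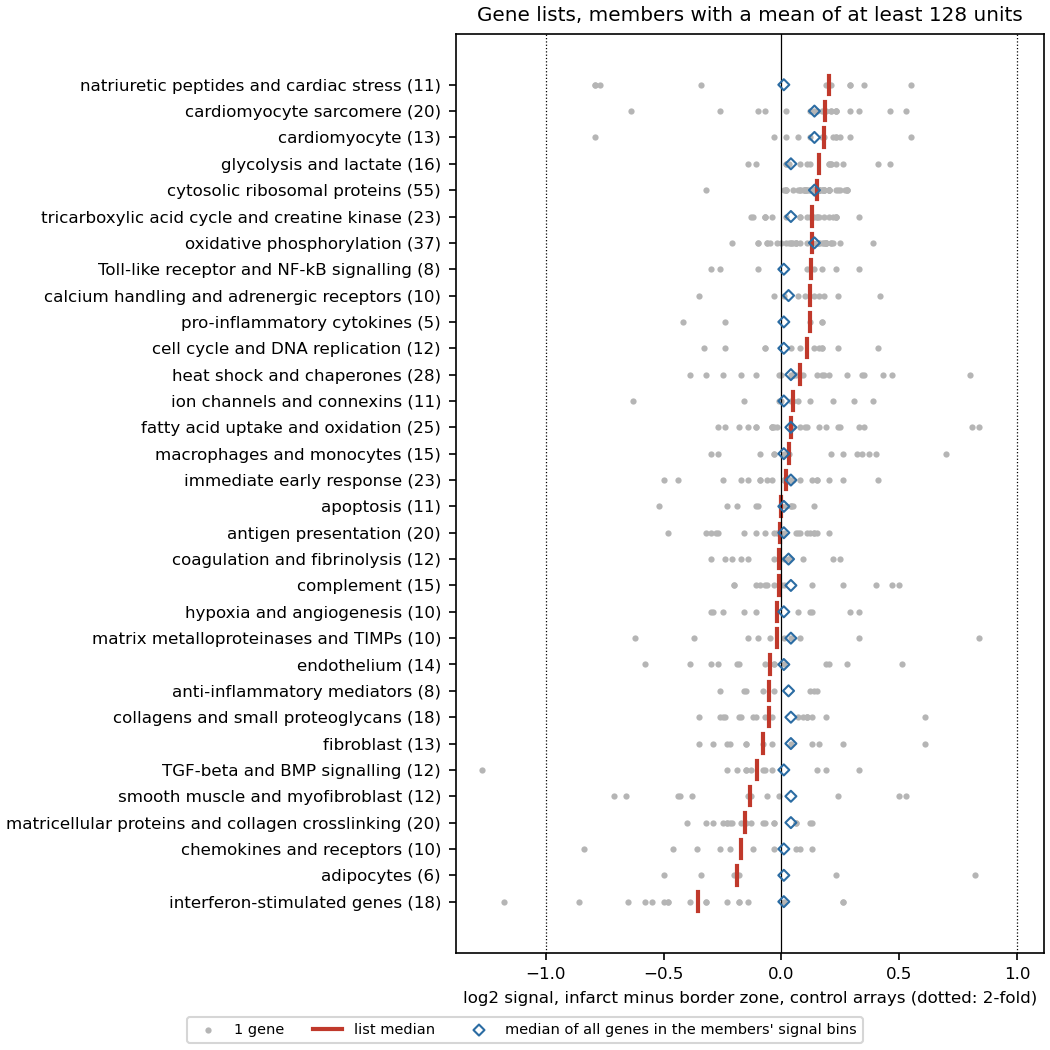
Log2 signal in the infarct zone minus that in the border zone of controls (x axis) for each gene list with 5 or more members of at least 128 units (y axis, number of such members in brackets). Grey points are genes, red bars list medians and blue diamonds the median of all genes, list members included, in the signal ranges of the members. The interferon-stimulated genes have the lowest median, at -0.35. The red bars of sarcomere, ribosomal and oxidative phosphorylation genes lie near their diamonds, which those genes help to set.

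Vascular markers differed little as a list, with 5 of 14 endothelial members above 0. PECAM1, an adhesion molecule of all endothelium, read 3590 and 3620 units, and VWF, von Willebrand factor, read 1150 and 1120 units. The leukocyte adhesion molecules VCAM1 and SELP, P-selectin, read 3620 and 2760 units and 177 and 118 units. ICAM2 read 195 and 277 units. Hypoxia and angiogenesis genes had 5 members above 0 and 5 below, with VEGFA at 3640 and 3360 units by its brightest probe set and 1920 and 2360 units by another, and ADM, adrenomedullin, at 301 and 377 units.

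Macrophage markers were present on both arrays, with summed signals of 23100 units in the border zone and 25800 units in the infarct zone. Of 15 members of at least 128 units 10 were above 0, with a median of 0.03. Over all 20 measured the median was 0.23, but the members added there were under 128 units and too dim for a direction. TYROBP, a signalling adaptor of myeloid receptors, read 499 and 814 units, a fold of 1.63, and C1QC, a chain of complement C1q, read 1080 and 1430 units. MRC1, the mannose receptor, read 832 and 1050 units, CD163, a haemoglobin scavenger receptor, 1330 and 1300 units, and CD74, which chaperones class II molecules, 366 and 298 units. None of the 7 neutrophil markers and none of the 16 markers of T and NK cells reached 128 units. Of B and plasma cells XBP1 read 3010 and 3100 units and JCHAIN 775 and 648 units, and of mast cells MS4A2 read 426 and 508 units.

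Other cell types were represented by few members. ALAS2, which starts haem synthesis in red cell precursors, read 176 units in the border zone and 97.3 units in the infarct zone, and HBB, the beta chain of haemoglobin, read 815 and 668 units. Both were lower after myoblasts too, at log2 differences of -1.74 and -0.43. Of 6 adipocyte genes LEP, leptin, read 109 and 193 units and SCD, a fatty acid desaturase, read 581 and 413 units. NCAM1, which nerve and also cardiac muscle can express, read 539 and 671 units by its brightest probe set and 517 and 384 units by another, and S100B of Schwann cells read 1140 and 1010 units. KRT8 of the epicardium and mesothelium read 518 and 677 units, and COL2A1 of cartilage 193 and 145 units.

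Inflammatory cytokines were mostly dim. Of 17 measured 5 reached 128 units, the largest difference being that of IL1B at 161 and 121 units. Anti-inflammatory mediators had 3 members above 0 and 5 below, from DUSP1 at 0.15 to NFKBIA at -0.26. Toll-like receptor and NF-kB signalling had 5 members above 0 and 3 below, from TLR2 at 487 and 615 units to TLR4 at 302 and 244 units. Complement had 6 above 0 and 9 below. C7, a component of the membrane attack complex, read 1860 and 2580 units in controls and differed by 0.56 after myoblasts, and C9 read 125 and 177 units. Coagulation and fibrinolysis had 6 members above 0 and 6 below, from F3, tissue factor, at 0.25 to F2R, a thrombin receptor, at -0.30.

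Immediate early genes had 14 of 23 members above 0, from IER3 at 1330 and 1770 units to NR4A3, a nuclear receptor, at 3120 and 2210 units. FOS read 6870 and 6440 units and EGR1 read 2440 and 2050 units. Cell cycle genes had 8 of 12 above 0, from RRM2, a ribonucleotide reductase subunit, at 116 and 154 units to the inhibitor CDKN1B at 1800 and 1430 units, whose dimmer probe set read 136 and 194 units. Apoptosis genes had 5 of 11 above 0, and their lowest member was FADD, an adaptor of death receptors, at 529 and 369 units.

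Of the genes that the study named for its array and other assays, 14 were measured and 9 had at least 128 units. Besides ACTA2, COL3A1, IL1B and TLR4, MAPK3, the kinase ERK1, read 271 and 393 units, MAPK14, the kinase p38 alpha, 1150 and 1270 units, HMGB1, a nuclear protein released by dying cells, 14700 and 14500 units, HSPD1, a mitochondrial chaperonin, 9020 and 8350 units, and FOXO1 1290 and 1200 units. TNF read 48.6 and 40.5 units, IL6 38.6 and 41.7 units, IL10 76.5 and 47.2 units, MAPK8 55.6 and 53.8 units and ITGAM 9.51 and 51.1 units. At that brightness probe sets of this platform often differed 2-fold between the arrays, so no direction is given for these 5.

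The zones after myoblasts gave a second pair of infarct and border arrays, in which the border zone was also the graft site. The part of the graft in the agreement or disagreement of the pairs was not tested. There 337 of the 12290 probe sets, 2.74%, were at least 2-fold apart, 115 higher and 222 lower in the infarct zone. Of the 77 probe sets at least 2-fold apart in controls 51, or 66.2%, ran the same way after myoblasts, where 56.6% of all 12290 did. Probe sets of the same 4 arrays are not independent replicates, so these shares are a description without a test. Higher in both were 19 of 25 and lower in both 32 of 52. Of the 77, 6 were also 2-fold the same way, 4 higher and 2 lower, and 5 were 2-fold the opposite way. Across the 12290 probe sets the 2 zone differences correlated at r = 0.14, which is a description across probe sets of 4 arrays. The correlation was 0.11 between 128 and 512 units, 0.17 between 512 and 2048 units and 0.30 between 2048 and 8192 units.

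At a threshold of 1.5-fold in each pair, 107 probe sets ran the same way and 59 ran opposite ways. Of the 107, 47 were higher in the infarct zone and 60 lower, and 42 carry a single symbol. The genes named from them were chosen after their values were seen. Lower in both infarct zones were the peptide precursors CCK, PDYN, NPPA and EDN1, as given above, with MYL4, ALAS2, TM2D3 and, by 1 of their probe sets in controls, SULF2 and SNX17. FIBIN, a secreted protein, read 3330 and 2030 units in controls and 6190 and 2530 units after myoblasts. Higher in both were HSPB6 by both probe sets, CYLD, and DDC, which makes dopamine and serotonin from their precursors, at 111 and 218 units in controls and 1010 and 2850 units after myoblasts. GCLM, a subunit of the enzyme that limits glutathione synthesis, read 159 and 258 units in controls and 141 and 264 units after myoblasts. NDUFV2, a complex I subunit, read 389 and 660 units in controls and 296 and 538 units after myoblasts by 1 of its probe sets.

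Of the 59 probe sets that ran opposite ways 23 carry a single symbol. They include ATP5I, PJA1, TGFB2, AGT, MMP14, KCNMB1 and LEP, whose values are given above. ARAP2, a regulator of small GTPases, read 200 and 59.7 units in controls and 141 and 349 units after myoblasts. Several of the largest differences of the control hearts were therefore not repeated in the second pair of arrays, while HSPB6, CYLD, CCK, PDYN, NPPA, MYL4 and NPPB kept their direction.

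**Figure D5:**
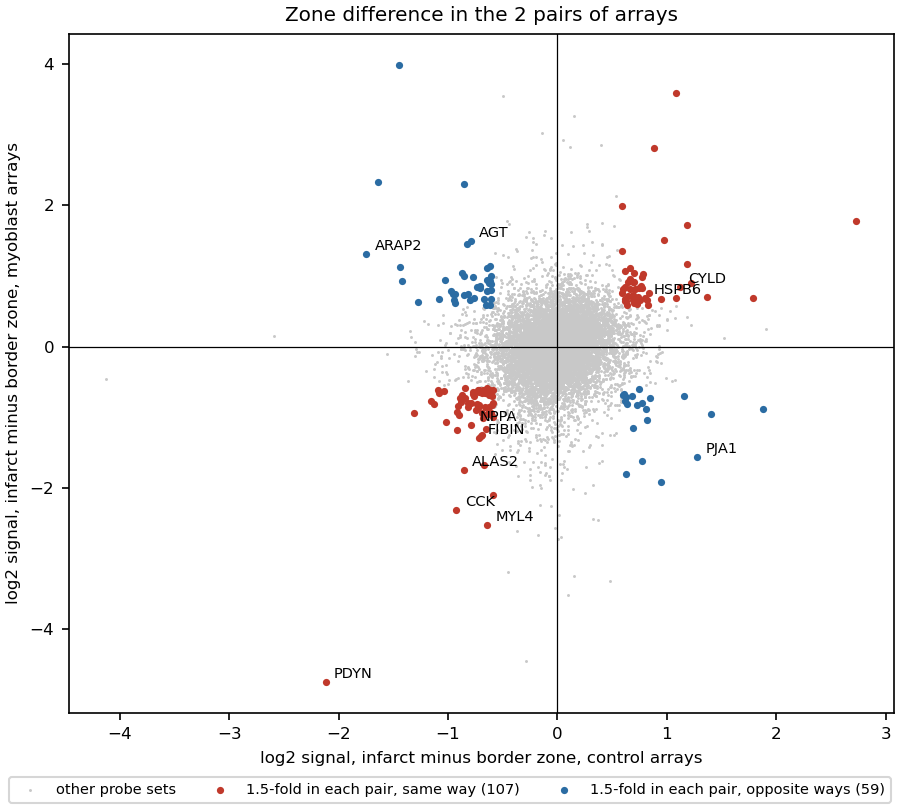
Log2 signal in the infarct zone minus that in the border zone, in controls (x axis) and after myoblasts (y axis), for the 12290 probe sets of at least 128 units. Red points are the 107 probe sets at least 1.5-fold apart the same way in each pair, blue points the 59 that ran opposite ways; PDYN, CCK and MYL4 lie low on both axes, and PJA1 and ARAP2 lie in opposite quadrants.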

How the data were processed

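RNA of minipig heart was extracted with TRIZOL, labelled with a 3' IVT Express Kit and hybridised to Affymetrix Porcine Genome Arrays, 1 array per condition. According to the study's methods the arrays were read with Command Console 3.1, normalized with MAS 5.0 and analysed in GeneSpring 11.0. The deposited values are log2 signals of the authors. MAS 5.0 subtracts local background and scales each array to one mean, so dim probe sets are noisy and a shift of all bright ones is not removed. The trimmed mean was 500.1 units on every array (2% trimmed at each end). The ratio of 3' to 5' GAPDH probe sets was 1.55 in the control border zone and 1.52 in the control infarct zone, and that of actin 24.9 and 36.8, and the part of this gap in the results was not tested. Depth is not defined for arrays, and 1 array a side limits the precision.

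The log2 signal of the border zone was subtracted from that of the infarct zone as deposited, and 2-fold, the threshold of the study, was counted with no test. Symbols came from the platform annotation, in which 10099 probe sets carry a single symbol, 9989 of them matched by gene ID to the reference. For each of 6765 genes the brightest probe set stood for the gene. The members, the 43 gene lists and the comparisons were chosen with earlier results of these data known. Genes were named by this rule: the 12 largest differences each way among probe sets of at least 128 units on each control array, the 6 largest each way among those under 128 units on 1 array, in each list the 2 highest and 2 lowest members of at least 128 units, and the genes the study named. Genes given in the text beyond it, such as further members of a list and the genes 1.5-fold apart in each pair, were chosen after their values were seen. Alternatives were other signal limits and folds, quantile normalization, centring on array medians, a lowess fit (span 0.3), floored signals, other ways to join probe sets and, added after the data were seen, 1.5-fold in each pair and medians of signal ranges. The counting was tested on simulated data. Python 3.11.15, numpy 2.4.6, pandas 2.3.3, scipy 1.17.1 and statsmodels 0.14.6 were used.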

Additional observations from a re-analysis of the deposited data

Results flagged for a closer look

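In 2 of the genes named by the rule the zone difference of controls was at least 2-fold and that after myoblasts at least 2-fold the opposite way. PJA1 had a log2 difference of 1.27 in controls and of -1.56 after myoblasts, 2.84 apart. ARAP2 had a log2 difference of -1.75 in controls and of 1.31 after myoblasts, -3.05 apart. The difference between the pairs was not tested, since each zone has 1 array per pair.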

How the results depend on the processing

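No paired analysis was possible because each condition has 1 array and the labels carry no replicate numbers, and no array could be left out. Counts of probe sets at least 2-fold higher and lower in the infarct zone, 25 and 52, were 174 and 172 from a mean of 64 units, 9 and 20 from 256 units, 13 and 23 from 128 units on each array, and 2144 and 1982 with no limit. They were 276 and 365 at 1.5-fold, 1 and 3 at 4-fold, and 10 and 17 for distinct genes in place of probe sets. Quantile normalization gave 26 and 51, centring on array medians 26 and 48, a lowess fit 26 and 51, a geometric mean 22 and 44, and the mean of 4 arrays 32 and 67. Of 38 list medians over all measured members 21 lay at least 0.1 from that of all genes. This was 13 over members of at least 128 units, where 32 lists had a median, 10 when signals under the array median were raised to it, and 15 to 18 with quantile normalization, lowess, averaged probe sets or medians of signal ranges. The median of bone and cartilage markers, -0.29, was 0.23 with probe sets of a gene averaged. That of pro-inflammatory cytokines, -0.13, was 0.11 with averaged probe sets and 0.12 over members of at least 128 units, and most members of both lists were under that limit. That of cytosolic ribosomal proteins, 0.15, was 0.02 after quantile normalization, under the median of all genes. Among single genes, ERAL1, at -1.20, was at 0.09 with its probe sets averaged, and ITGAM, at 2.42, was at -0.02 with signals floored, since both its signals lie under the array medians. Of 180 named genes, 51 moved by at least the median gap of paired probe sets with probe sets averaged and 17 with signals floored, besides these 2 genes, and none after quantile normalization or a lowess fit. The cause of the other changes was not tested. The median of interferon-stimulated genes lay between -0.35 and -0.29 under the settings of normalization, flooring, signal limit and averaging, and was -0.37 as a difference from the medians of signal ranges. The share of probe sets 2-fold apart in controls that ran the same way after myoblasts, 66.2%, was 74.3% from 128 units on all 4 arrays, 67.5% after quantile normalization and 64.5% at 1.5-fold in each pair. The share of paired probe sets with one sign, 55.0%, was 55.1% from 256 units. Signal limits what can be read: under 128 units 2-fold differences between the 2 arrays are frequent.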
